A study of Homo sapiens with 6 samples.

Results

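Genes that copy the genome and supply its building blocks were followed in U937, a human myeloid cell line that grows in suspension and is listed as AML in the labels. The cells had received DMSO, the solvent control, or ethacrynic acid, a diuretic drug whose structure also reacts with thiol groups. The 46 genes were taken by symbol from the 61806 Ensembl gene IDs of the deposited count table, and all 46 were found and passed the filter on low counts that left 19611 genes. Both groups were the same unedited line in RPMI 1640 with serum, and each had 3 libraries: control (DMSO) replicates 1 to 3 and ethacrynic acid replicates 1 to 3. The titles give day 3, the treatment note gives 2 days, and the dose is not stated in the labels. Since separate cultures are not mentioned for the replicates, p-values reflect only how much these libraries vary, and part of that may be technical. Bulk RNA cannot tell a change in the share of cycling cells from a change in RNA per cell.

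Before S phase, the origin recognition complex (ORC) with CDC6 and CDT1 loads the MCM2-7 ring onto DNA, a step called licensing. CDC45 and the GINS complex then join the ring to make the active helicase, DNA polymerases alpha, delta and epsilon copy the strands, the clamp PCNA holds the polymerases on DNA, and ribonucleotide reductase and thymidine enzymes supply the nucleotides. Many of these genes are transcribed under E2F factors at the passage from G1 to S phase, and they fall silent when cells leave the cycle, as cells of the myeloid lineage do when they mature fully.

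Promoter windows of RefSeq (build GRCh38.p14, from 250 bases before to 50 bases after the annotated start) were given for 39 of the 46 genes. An E2F-type motif, defined as TTTCCCGC, TTTCGCGC, TTTGCCGC or TTTGGCGC on either strand, was present in at least 1 window of 19 of these 39 genes (48.7%), against 1090 of all 27305 genes of the promoter table (3.99%). It was found in 6 of 8 licensing genes, 3 of 5 helicase activation genes and 4 of 8 polymerase and primase genes, and in 1 of 4 nucleotide enzyme genes, TYMS. The CCAAT letters, on either strand, were in 24 of the 39 genes (61.5%) and in 39.7% of all genes. These are letter matches only, and overlapping matches were counted separately, so MCM2 has 2 matches in 1 stretch and MCM6 has 4 in 2. The windows with at least 2 matches are shown. They belong to E2F1 and to the 4 subunits of the MCM ring for which a window was given. No window was given for MCM4 and MCM5. The sequences are written 5′ to 3′ on the strand of the gene, and have the E2F-type letters in capitals.

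E2F1 (chr20:33686336-33686635, - strand): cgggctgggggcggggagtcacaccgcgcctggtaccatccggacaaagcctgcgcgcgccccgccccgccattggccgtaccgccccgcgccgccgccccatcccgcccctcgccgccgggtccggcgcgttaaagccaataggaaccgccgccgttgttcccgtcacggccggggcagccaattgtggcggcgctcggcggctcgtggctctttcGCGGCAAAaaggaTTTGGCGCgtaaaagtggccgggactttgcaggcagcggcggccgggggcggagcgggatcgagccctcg
MCM2 (chr3:127598161-127598460, + strand): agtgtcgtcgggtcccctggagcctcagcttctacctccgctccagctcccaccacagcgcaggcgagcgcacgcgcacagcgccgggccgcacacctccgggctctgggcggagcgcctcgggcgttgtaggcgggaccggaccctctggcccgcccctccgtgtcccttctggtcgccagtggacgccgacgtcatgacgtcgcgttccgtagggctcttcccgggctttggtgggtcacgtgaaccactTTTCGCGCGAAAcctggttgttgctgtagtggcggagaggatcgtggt
MCM3 (chr6:52284693-52284992, - strand): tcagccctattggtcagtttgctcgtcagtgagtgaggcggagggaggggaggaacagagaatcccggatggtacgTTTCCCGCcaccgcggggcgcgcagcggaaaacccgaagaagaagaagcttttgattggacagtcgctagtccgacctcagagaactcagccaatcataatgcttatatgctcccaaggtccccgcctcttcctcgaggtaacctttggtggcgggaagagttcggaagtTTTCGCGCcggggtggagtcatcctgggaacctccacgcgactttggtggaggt
MCM6 (chr2:135876394-135876693, - strand): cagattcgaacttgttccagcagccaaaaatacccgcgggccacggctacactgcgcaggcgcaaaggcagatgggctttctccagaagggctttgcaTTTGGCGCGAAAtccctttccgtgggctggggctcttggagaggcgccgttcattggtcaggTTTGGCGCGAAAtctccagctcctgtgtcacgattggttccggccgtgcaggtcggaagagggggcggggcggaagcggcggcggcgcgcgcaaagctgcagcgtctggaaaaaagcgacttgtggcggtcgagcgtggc
MCM7 (chr7:100101348-100101647, - strand): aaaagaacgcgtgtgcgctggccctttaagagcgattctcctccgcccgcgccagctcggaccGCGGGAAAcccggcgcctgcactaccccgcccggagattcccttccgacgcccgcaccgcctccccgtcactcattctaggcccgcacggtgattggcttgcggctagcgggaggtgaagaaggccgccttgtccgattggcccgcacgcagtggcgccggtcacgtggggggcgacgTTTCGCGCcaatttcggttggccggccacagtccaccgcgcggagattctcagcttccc

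The 6 libraries held 57516146 to 68128543 counts, with every control total above every ethacrynic acid total (exact two-sided permutation p = 0.1, the smallest that 3 against 3 can give). The summed level of 10 identity markers was 2463 to 2843 CPM in controls and 2947 to 3763 CPM with ethacrynic acid, and its part in the results below was not tested. Of these 10, 6 fold changes were positive and 4 negative, and edgeR called 0 in the fit of all libraries. Without ethacrynic acid replicate 3 it called 1 higher, beside 0.73% of all genes called. With the replicate number as a term it called 1 higher and 1 lower, beside 1.81% of all genes. Most of the difference in the sum lay in LYZ, a lysozyme of myeloid cells (means of 211 and 656 CPM, log2 1.64 ± 0.30 SE, edgeR adjusted p = 0.107, DESeq2 adjusted p = 0.00518), and in the integrin ITGB2 (1178 and 1519 CPM). PTPRC, the leukocyte antigen CD45, was lower in every ethacrynic acid library (208 and 147 CPM, log2 -0.50 ± 0.16 SE, edgeR adjusted p = 0.347). CPM here means counts per 1000000, scaled between libraries by TMM. Ethacrynic acid replicate 3 stood apart. Of 14 markers of other cell types, 3 were at 0 counts in all libraries (HBB, HBA1 and COL1A2), but the epithelial genes EPCAM, KRT8 and KRT18 summed to 330.0 CPM in that library against 21.2 to 36.1 CPM in the other 5. The other 11 markers summed to 85.3 CPM there and to 99.1 to 114 CPM elsewhere. Most of that sum lay in a single gene, with a mean of 89.2 CPM over the 6 libraries. For some of the genes whose fold changes are described below, values without that or another library are given. Fold changes without such a value could move as well. Over the fits that each lack 1 library, RB1 ran from -0.61 to -0.26 and CDC6 from 0.19 to 0.41.

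None of the 46 genes was called as higher or lower with ethacrynic acid (edgeR quasi-likelihood test, Benjamini-Hochberg adjusted p under 0.05). Among all genes tested, 0.229% were called higher and 0.0357% lower, so a list of this size would hold hardly any call at that rate. At an unadjusted p under 0.05, edgeR had 1 of the 46 genes, POLA2, a share of 2.17% against 11.1% of all genes. DESeq2 also called 0 of the 46, with 1 at an unadjusted p under 0.05. It called 3% of the 17007 genes to which it gave an adjusted p. That unadjusted p was reached by 7.97% of 32876 genes, which include genes that the edgeR filter left out. The lowest adjusted p among the 46 was 0.377 with edgeR and 0.246 with DESeq2, both for POLA2. Without ethacrynic acid replicate 3 the count was again 0, beside 0.73% of all genes, and 6 genes had an unadjusted p under 0.05, where 16% of all genes did. With the replicate number as a term 0 were called beside 1.81% of all genes, and 8 had an unadjusted p under 0.05 beside 19.8% of all genes.

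The fit also gave an interval for the size of each change. Like the p-values, these intervals reflect only how much these libraries vary, under TMM scaling. The 95% intervals of the fold changes, not adjusted for the number of genes, lay inside a 1.5-fold change in either direction for 42 of the 46 genes and inside a 2-fold change for all 46. Of all genes tested, 41% had an interval inside 1.5-fold and 62.8% inside 2-fold. These shares were 77.1% and 96.9% among the 9549 genes at least as abundant as CCNE2, the least abundant of the 46. Over the 46 genes the lowest bound was 0.656-fold, for CCNE2, and the highest was 1.58-fold, for E2F1. The other intervals that reached past 1.5-fold were those of TK1 and FEN1. Leaving out each library in turn gave 36 to 44 intervals inside 1.5-fold.

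**Figure D1:**
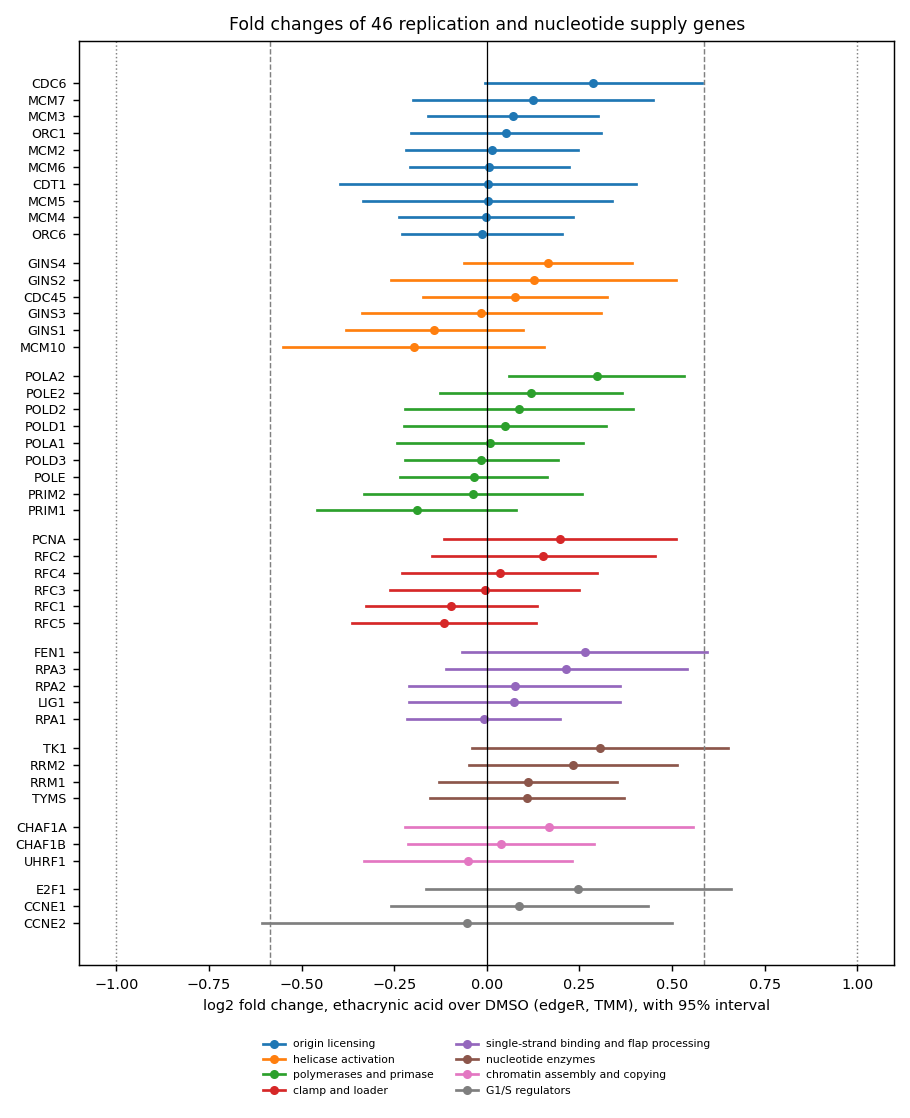
Log2 fold change (x axis) of each of the 46 genes (y axis, grouped by role) with its 95% interval from the edgeR fit of 3 against 3 libraries. Dashed and dotted lines mark 1.5-fold and 2-fold changes. The intervals of 42 genes stay inside 1.5-fold, and all 46 inside 2-fold.

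Of the 46 fold changes 31 were positive and 15 negative, with a median log2 fold change of 0.05, while 49.9% of all genes tested were positive and their median was -0.00. Leaving out ethacrynic acid replicate 3 gave a median of 0.11 with 34 of the 46 positive (47.3% of all genes), and leaving out replicate 1 gave -0.02 with 21 positive. It was -0.03 when libraries were scaled to total counts alone, which moved the median of all genes to -0.08, and 18 of the 46 were then positive. The share of all genes that were positive was not computed without replicate 1 or with total counts alone. For 39 of the 46 genes the difference between group means was smaller than the range among the 3 control libraries. That also held for 24 of 28 further replication factors, 18 of 25 nucleotide supply genes, 19 of 27 G1/S control genes and 13 of 16 mitotic genes. The share of all genes was not computed, so this count says little about the 46. The groups did not overlap for 3 genes, POLA2, POLE2 and GINS4 (6.52%, against 17.6% of all genes). All 3 were higher in ethacrynic acid, as were 8.64% of all genes.

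Single libraries held most of the extreme values. Ethacrynic acid replicate 1 had the highest level of 26 of the 46 genes, and the lowest level was in control replicate 3 for 19 genes and in ethacrynic acid replicate 3 for 16. Relative to the control mean of each gene, the median level was 99.6%, 106% and 93.1% in control replicates 1, 2 and 3 and 113%, 104% and 95.03% in ethacrynic acid replicates 1, 2 and 3. The TMM factors ran the other way, lowest in ethacrynic acid replicate 1 (0.916) and highest in control replicate 3 (1.05). With total counts alone, ethacrynic acid replicate 1 and control replicate 2 each had the highest level of 18 genes. The lowest level was then in ethacrynic acid replicate 3 for 14 genes, in ethacrynic acid replicate 1 for 13 and in control replicate 3 for 10.

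**Figure D2:**
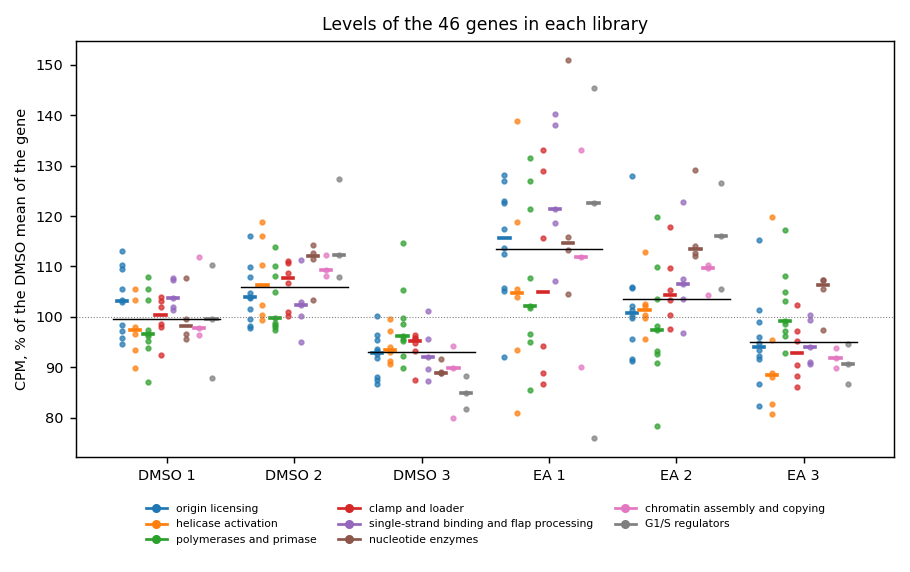
Level of each of the 46 genes (points, coloured by role) in each library as a percentage of its mean over the 3 DMSO libraries. Coloured bars are medians of a role and black lines medians of all 46. EA is ethacrynic acid. EA 1 has the highest black line (113%) and DMSO 3 the lowest (93.1%).

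Licensing genes differed little between the groups. The median log2 fold change of the 10 genes was 0.01, with 8 positive, and it was 0.10 without ethacrynic acid replicate 3. The 6 subunits of the MCM2-7 ring, the motor of the replicative helicase, had log2 fold changes of -0.00 (MCM4) to 0.13 (MCM7), and their intervals together ran from 0.794-fold to 1.37-fold. Without ethacrynic acid replicate 3 the log2 fold change of MCM7 was 0.22, with an upper bound of 0.52. MCM2 (chromosome 3, 127598223 to 127622436) was at 332, 309 and 303 CPM in control and 354, 301 and 299 CPM in ethacrynic acid libraries. The groups overlapped, and ethacrynic acid replicate 1 was the highest. Exons of MCM2 share 1113 bases with AC023593.1 on the other strand. MCM7 (chromosome 7, 100092728 to 100101940), the most abundant of the 6 per length, was at 569.6, 525 and 455 CPM in control and 661, 546 and 482 CPM in ethacrynic acid libraries. Its control range covered ethacrynic acid replicates 2 and 3. MCM5 (chromosome 22, 35400063 to 35425430) had nearly equal means of 244 ± 21.3 and 245 ± 47.7 CPM (SD, n = 3 each).

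The loading factor CDC6 (chromosome 17, 40287633 to 40304657), an ATPase that helps ORC place the ring, had the highest fold change of the licensing genes. It was at 31.4, 37.5 and 28.0 CPM in control and 39.7, 41.3 and 37.2 CPM in ethacrynic acid libraries. The groups overlapped by a small margin, at control replicate 2 and ethacrynic acid replicate 3, and the log2 fold change of 0.29 ± 0.13 (SE) did not pass (edgeR adjusted p = 0.453). CDT1, its partner in loading, was at 99.7 ± 12.7 and 100.02 ± 23.5 CPM (SD, n = 3 each). ORC1, the largest ORC subunit, was at 61.1 ± 3.58 and 63.3 ± 7.80 CPM. ORC6, the smallest, had the lowest fold change of the licensing genes (log2 -0.01 ± 0.09 SE, edgeR adjusted p = 0.977).

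Genes that turn the loaded ring into a helicase had fold changes of both signs (3 positive and 3 negative, median log2 0.03, and 0.08 without ethacrynic acid replicate 3). MCM10, which is needed to start the assembled helicase, had the lowest fold change of the 46 genes in the fit of all 6 libraries, though not in every other fit. It was at 20.5, 27.1 and 20.8 CPM in control and 18.5, 22.8 and 18.5 CPM in ethacrynic acid libraries (log2 fold change -0.20 ± 0.15 SE, edgeR adjusted p = 0.649). Ethacrynic acid replicates 1 and 3 lay below every control library, and replicate 2 lay among them. Its log2 fold change ran from -0.31 without ethacrynic acid replicate 2 to -0.06 without control replicate 2, and at -0.15 without ethacrynic acid replicate 3 it was above that of the primase gene PRIM1 (-0.29). GINS4 was at 30.2, 31.5 and 30.7 CPM in control and 31.98, 34.7 and 36.8 CPM in ethacrynic acid libraries (0.17 ± 0.10 SE, adjusted p = 0.556). Its groups did not overlap, while its partner GINS1 had means of 67.5 ± 6.17 and 61.2 ± 4.64 CPM. Exons of GINS4 share 1159 bases with AC009630.2 on the other strand, so its counts are uncertain. CDC45 was at 60.9 ± 3.52 and 64.2 ± 7.34 CPM (SD, n = 3 each).

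Among the 9 polymerase and primase genes, 5 fold changes were positive and 4 negative (median log2 0.01). POLA2 (ENSG00000014138, chromosome 11, 65261762 to 65305589), the regulatory B subunit of polymerase alpha, which starts each new strand together with primase, was at 37.9, 44.4 and 38.8 CPM in control and 53.2, 48.4 and 47.4 CPM in ethacrynic acid libraries. Every ethacrynic acid library was above every control library. The log2 fold change of 0.30 ± 0.10 (SE) had an interval of 1.04-fold to 1.45-fold and did not pass the correction (edgeR adjusted p = 0.377). Its exons share 2012 bases with AP000944.2 on the same strand, so its counts are uncertain. The catalytic subunit POLA1 did not follow, at 71.0 ± 8.84 and 71.4 ± 3.46 CPM (SD, n = 3 each). PRIM1, the primase subunit that makes the RNA primer, was at 33.4, 33.4 and 36.1 CPM in control and 29.4, 26.9 and 34.0 CPM in ethacrynic acid libraries (-0.19 ± 0.12 SE, adjusted p = 0.571). Only ethacrynic acid replicate 3 reached the control range, and without it the log2 fold change was -0.29 (adjusted p = 0.278).

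The other polymerases extend the strands. POLE, the catalytic subunit of polymerase epsilon on the leading strand, was at 126, 118 and 114 CPM in control and 121, 117 and 111 CPM in ethacrynic acid libraries. Its groups overlapped, and ethacrynic acid replicate 3 was the lowest library. POLE2, its second subunit, was at 15.2 ± 0.750 and 16.5 ± 0.168 CPM (SD, n = 3 each), with groups that did not overlap and an interval of 0.915-fold to 1.29-fold. POLD1, the catalytic subunit of polymerase delta on the lagging strand, was at 211 ± 6.08 and 218 ± 33.2 CPM.

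PCNA (chromosome 20, 5114953 to 5126626), the sliding clamp, was at 444, 482 and 381 CPM in control and 562, 513 and 424 CPM in ethacrynic acid libraries. Ethacrynic acid replicates 1 and 2 lay above the controls and replicate 3 lay among them. The log2 fold change was 0.20 ± 0.14 (SE, edgeR adjusted p = 0.611), and dropping ethacrynic acid replicate 3 brought it to 0.30 (adjusted p = 0.286). It was 0.11 without control replicate 3 and also 0.11 without ethacrynic acid replicate 1. The 5 subunits of the clamp loader RFC, which opens the ring of PCNA, had fold changes of both signs. The large subunit RFC1 was at 129 ± 10.3 and 121 ± 9.21 CPM, and RFC2 was at 71.4 ± 2.93 and 79.4 ± 14.0 CPM (SD, n = 3 each). RFC5 had the lowest fold change of the loader (log2 -0.12 ± 0.11 SE, adjusted p = 0.712), which was -0.04 when control replicate 2 was dropped. PCNA has 3 named pseudogenes, which held 0.00607% of the summed counts.

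Among genes for single-stranded DNA and the joining of Okazaki fragments, FEN1 (chromosome 11, 61792637 to 61797244), the nuclease that trims their flaps, had the highest fold change. It was at 87.1, 95.6 and 74.9 CPM in control and 119, 105 and 85.4 CPM in ethacrynic acid libraries (log2 0.26 ± 0.14 SE, edgeR adjusted p = 0.524). Replicates 1 and 2 lay above the controls and replicate 3 did not. Without replicate 3 the log2 fold change was 0.38 with an adjusted p of 0.220, the lowest of the 46 genes in that fit. Without ethacrynic acid replicate 1 it was 0.16, and without control replicate 3 it was 0.17. LIG1, the ligase that seals the nicks, was at 111 ± 10.2 and 117 ± 15.6 CPM (SD, n = 3 each). The single-strand binding subunit RPA1 had the lowest fold change of these 5 genes (-0.01 ± 0.09 SE, adjusted p = 0.982), and RPA3, the smallest subunit, was at 30.0 ± 1.36 and 34.9 ± 6.39 CPM.

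All 4 nucleotide enzymes had positive fold changes, with a median log2 fold change of 0.17 that was 0.10 to 0.26 when each library was left out, and none passed. TK1 (ENSG00000167900, chromosome 17, 78174075 to 78187233), the thymidine kinase of the salvage route, had the highest fold change of the set. It was at 48.1, 46.1 and 39.6 CPM in control and 67.4, 50.05 and 47.9 CPM in ethacrynic acid libraries (0.30 ± 0.15 SE, edgeR adjusted p = 0.496). Ethacrynic acid replicate 1 was far above the rest and replicate 3 lay just below the highest control. Without replicate 1 the log2 fold change was 0.14. RRM2 (chromosome 2, 10120698 to 10131419), the small subunit of ribonucleotide reductase that rises in S phase, was at 279, 329 and 257 CPM in control and 334, 372 and 309 CPM in ethacrynic acid libraries (0.23 ± 0.12 SE, adjusted p = 0.512). The groups overlapped only through control replicate 2. RRM1, the large subunit, was at 142 ± 15.8 and 153 ± 7.48 CPM (0.11 ± 0.10 SE, adjusted p = 0.713). TYMS, which makes thymidylate, was at 217 ± 24.6 and 234 ± 19.6 CPM (0.11 ± 0.11 SE, adjusted p = 0.750). Single libraries moved these values: with control replicate 3 left out they were 0.15 for RRM2, 0.05 for RRM1 and 0.03 for TYMS, and with control replicate 2 left out they were 0.34, 0.20 and 0.19. Exons of TYMS share 967 bases with ENOSF1 on the other strand, and those of RRM2 share 1077 bases with AC007240.1 on the same strand, so both are uncertain.

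Ratios within a library do not depend on how libraries are scaled. Per kilobase of transcript, RRM2 was 1.84, 1.85 and 1.77 times RRM1 in control and 2.02, 2.06 and 1.85 times RRM1 in ethacrynic acid libraries. The groups did not overlap, but control replicate 2 and ethacrynic acid replicate 3 were nearly equal. POLA1 was 1.23, 1.24 and 1.12 times POLA2 in control and 0.865, 1.04 and 1.05 times POLA2 in ethacrynic acid libraries. Both had an exact two-sided permutation p of 0.1, the smallest possible, and an adjusted p of 0.2 over the 4 ratios computed, which were chosen with the values of the genes known. CCNE1 over CCNE2 (exact permutation p = 0.8, adjusted p = 0.8) and CDC6 over ORC1 (exact permutation p = 0.2, adjusted p = 0.267) were the other two.

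E2F1 (chromosome 20, 33675683 to 33686404), the transcription factor of the G1 to S passage, was at 58.0, 56.7 and 42.9 CPM in control and 76.3, 60.9 and 49.7 CPM in ethacrynic acid libraries (log2 0.25 ± 0.18 SE, edgeR adjusted p = 0.628). Control replicate 3 was the lowest library and ethacrynic acid replicate 1 the highest, as for many of the other genes. Without ethacrynic acid replicate 1 the log2 fold change was 0.08, and without replicate 3 it was 0.38 (adjusted p = 0.294). Cyclin E1 (CCNE1) was at 19.0 ± 2.29 and 20.2 ± 3.04 CPM, and CCNE2, the second E-type cyclin, was at 9.90, 14.3 and 9.56 CPM in control and 8.56, 14.3 and 9.76 CPM in ethacrynic acid libraries (-0.05 ± 0.24 SE, adjusted p = 0.956). Exons of CCNE2 share 1629 bases with INTS8 on the other strand. CHAF1A, the large subunit of the factor that places histones behind the fork, was at 112, 108 and 80.1 CPM in control and 133, 110.5 and 93.9 CPM in ethacrynic acid libraries (0.17 ± 0.17 SE, adjusted p = 0.732). Dropping ethacrynic acid replicate 3 brought this to 0.28, dropping ethacrynic acid replicate 1 to 0.04 and dropping control replicate 3 to 0.03. UHRF1, which recruits DNA methylation to the copied strand, was at 99.5 ± 11.3 and 96.1 ± 11.2 CPM (-0.05 ± 0.12 SE, adjusted p = 0.906).

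**Figure D3:**
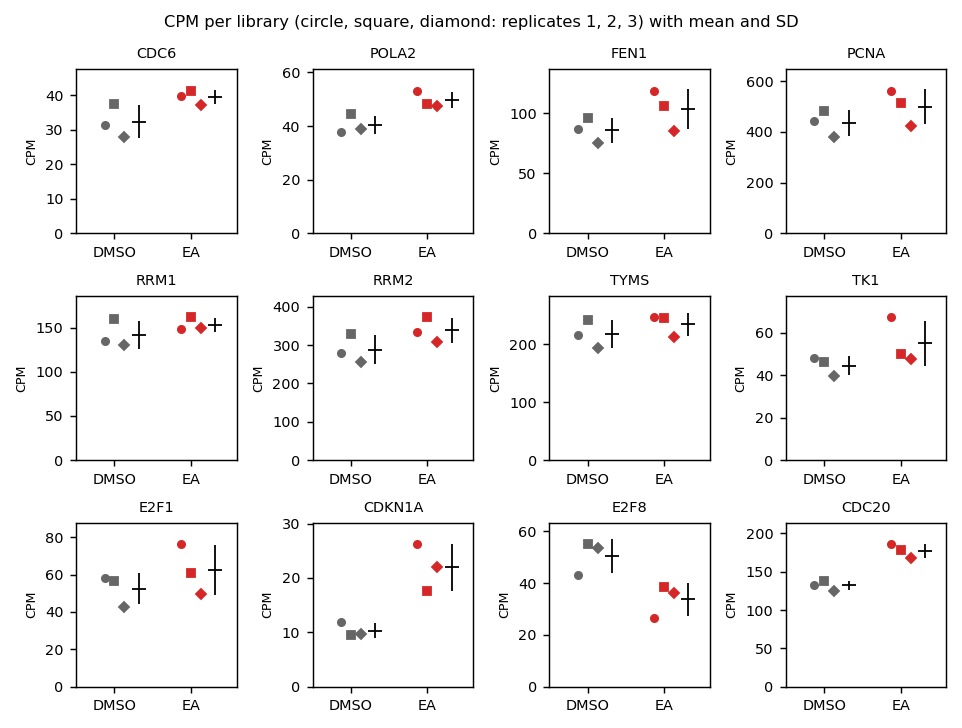
CPM (y axis, from 0) of 9 of the 46 genes and of CDKN1A, E2F8 and CDC20 in each DMSO and ethacrynic acid (EA) library. Circles, squares and diamonds are replicates 1, 2 and 3, and black marks show the mean with SD (n = 3). Groups overlap for all members shown but POLA2, and do not overlap for CDKN1A, E2F8 and CDC20.

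The levels of the 46 genes spanned a wide range. Scaled per kilobase of the principal transcript, control levels ran from 3.38 (CCNE2) to 321 CPM per kb (PCNA). Within the MCM ring, whose subunits are built in equal numbers, MCM7 (175 ± 19.6 CPM per kb, SD, n = 3) and MCM3 (166 ± 11.9) led and did not differ beyond their spread. MCM6 followed at 110 ± 7.98 CPM per kb, then MCM2 (86.9 ± 4.22) and MCM4 (85.4 ± 7.39), again within their spread, and MCM5 was last at 69.1 ± 6.02. The highest subunit was 2.53 times the lowest in control and 2.75 times in ethacrynic acid libraries. Polymerase delta subunits differed more, with POLD2 at 7.87 times POLD3 in control and 8.45 times in ethacrynic acid libraries per kilobase. Loading factor CDC6, at 6.71 ± 0.999 CPM per kb, was far below the ring it loads. Counts cover the whole gene while the length is that of the principal transcript, so ranks and ratios between genes depend on that choice. The SD covers only the spread between libraries.

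**Figure D4:**
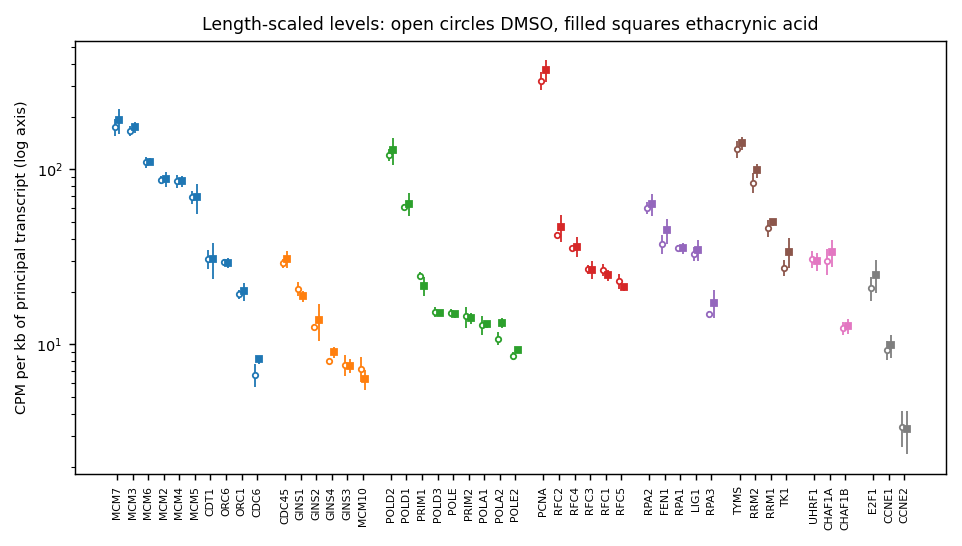
Mean CPM per kilobase of principal transcript (log axis) with SD (n = 3) for each of the 46 genes, grouped and coloured by role in the order of the plot of fold changes. Open circles are DMSO and filled squares ethacrynic acid libraries. PCNA is the highest (321 CPM per kb in DMSO) and CCNE2 the lowest (3.38).

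Other genes of the same pathways gave the same picture for calls in the edgeR test, with 0 in each list. Of 28 further replication factors, 9 fold changes were positive and 19 negative (median log2 -0.11). CDC7, the kinase that fires licensed origins, was at 46.3, 52.9 and 55.8 CPM in control and 40.7, 41.4 and 44.6 CPM in ethacrynic acid libraries (-0.29 ± 0.10 SE, edgeR adjusted p = 0.385). All ethacrynic acid libraries were below the controls. RECQL4, a helicase that takes part in initiation, was at 123 ± 5.83 and 148 ± 18.0 CPM (0.27 ± 0.11 SE, adjusted p = 0.431). Of 25 further nucleotide supply genes, 15 were positive and 10 negative (median log2 0.01, or 0.05 when ethacrynic acid replicate 3 was dropped). IMPDH1, an enzyme of guanine nucleotide synthesis, was at 212, 200.02 and 179 CPM in control and 292, 253 and 220.2 CPM in ethacrynic acid libraries (0.37 ± 0.12 SE, adjusted p = 0.368), and UMPS, which completes uridylate synthesis, was at 32.2 ± 2.90 and 39.9 ± 3.70 CPM (0.31 ± 0.12 SE, adjusted p = 0.409). For both genes every ethacrynic acid library was above every control library, and neither passed. IMPDH1 has 7 named pseudogenes, so its counts are uncertain. The remaining genes of smallest p were ORC2 (-0.21 ± 0.12 SE, adjusted p = 0.539), ATAD5 (-0.33 ± 0.16 SE, adjusted p = 0.497), DCTPP1 (0.34 ± 0.15 SE, adjusted p = 0.467) and CAD (0.15 ± 0.08 SE, adjusted p = 0.509).

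Of 27 further genes that control entry into S phase, 10 were positive and 17 negative (median log2 -0.05, and -0.11 without ethacrynic acid replicate 3). CDKN1A, which encodes the CDK inhibitor p21, was at 11.9, 9.46 and 9.64 CPM in control and 26.2, 17.5 and 22.0 CPM in ethacrynic acid libraries. All ethacrynic acid libraries were above the controls, and the log2 fold change of 1.09 ± 0.18 (SE) had an edgeR adjusted p of 0.0764. E2F8, a repressor of the E2F family, was at 43.1, 55.1 and 53.4 CPM in control and 26.5, 38.5 and 36.2 CPM in ethacrynic acid libraries (-0.58 ± 0.16 SE, adjusted p = 0.280), again without overlap. Both passed with DESeq2 (adjusted p = 2.68e-06 for CDKN1A and 0.0229 for E2F8). RB1, the restraint on E2F factors, was at 135 ± 17.9 and 98.3 ± 23.8 CPM (-0.45 ± 0.19 SE, adjusted p = 0.434). E2F7, a close relative of E2F8, was at 3.87 CPM in ethacrynic acid replicate 3 and at 0.507 to 0.801 CPM in the other 5 libraries. Its log2 fold change was 1.52 ± 0.67 (SE, edgeR adjusted p = 0.458), and 0.24 without that library. CCND1, chosen after its values were seen, was at 16.8 CPM in ethacrynic acid replicate 3 and at 1.85 to 2.65 CPM elsewhere. That library is the one with the high epithelial markers. The part of those markers in these values was not tested.

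Of 16 mitotic genes, 6 were positive and 10 negative (median log2 -0.04, and -0.08 without ethacrynic acid replicate 3). CDC20, an activator of the anaphase-promoting complex, was at 133, 138 and 125 CPM in control and 186, 178 and 167 CPM in ethacrynic acid libraries (0.42 ± 0.09 SE, edgeR adjusted p = 0.149), without overlap, and passed with DESeq2 (adjusted p = 0.00701). PLK1, a mitotic kinase, was at 150 ± 4.96 and 179 ± 11.6 CPM (0.26 ± 0.09 SE, adjusted p = 0.372). BIRC5 (0.20 ± 0.11 SE, adjusted p = 0.524) and CCNB1 (0.17 ± 0.10 SE, adjusted p = 0.538) did not pass. The proliferation marker MKI67 was at 276 ± 23.2 and 295 ± 10.03 CPM (SD, n = 3 each), with a fold change interval of 0.920 to 1.24.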

How the data were processed

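RNA-seq libraries of U937 cells, 3 per group, were built from total RNA with the SMARTER mRNA-seq kit that the labels' protocols name. The deposited table holds whole-number counts per Ensembl gene, not scaled between libraries. The submitters' processing notes list GRCh38, edgeR, HISAT2, fastp and StringTie 1.3.4d. Annotation, strand setting and way of counting: not given in the sources used here. In the deposited table, counts of 4 were more frequent than counts of 3 or 5 (1306, 651 and 412 genes in control replicate 1), so 1 read pair may be worth several counts, and depth is an upper limit of precision.

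Column names were tied to samples through group and replicate. Symbols came from a table of gene IDs, coordinates (counted from 1), exon overlaps and principal transcript lengths from GENCODE 29 on GRCh38. The filter was filterByExpr (at least 10 counts, total 15), scaling was TMM, and edgeR 4.0.16 (R 4.3.3) gave quasi-likelihood tests with group as the only term and Benjamini-Hochberg adjustment. SE was taken as the log2 fold change over the root of F, and 95% intervals use the t distribution of the fit. The test was tried on counts simulated from its own fitted model with independent libraries. Such a trial cannot show how the test handles a library that stands apart or replicates that are not independent. Alternatives were other scalings and filters, DESeq2 1.42.0, limma-voom (limma 3.58.1), leaving out each library, a term for replicate number, other thresholds, counts divided by 4 and protein-coding genes only.

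The 46 genes, their roles and the other lists were chosen with earlier results of these data known, so no list was tested as a set. Fold changes are given for the highest and lowest gene of each role, for genes with an unadjusted p under 0.05 in the edgeR, DESeq2 or replicate 3 left-out fits, for all 4 nucleotide enzymes, and for the genes of smallest p (at most 4) of each other list. Fold changes or intervals of MCM4, MCM7, POLE2, LYZ, PTPRC and MKI67 were added outside this rule. Of the 46 genes 21 have exons that overlap another gene, on either strand, and 8 have named pseudogenes, so their counting is uncertain. Among these 8 the named pseudogenes held at most 0.00989% of the summed counts, in the case of RRM2.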

Additional observations from a re-analysis of the deposited data

How the results depend on the processing

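No alternative gave a call among the 46 genes at an adjusted p under 0.05 (lowest adjusted p 0.102, for RRM2, with the replicate number as a term), and at an unadjusted p under 0.05 the edgeR test had 1 higher and 0 lower. Intervals inside 1.5-fold numbered 36 to 44 when each library was left out and 41 to 46 in the other edgeR fits; this count was chosen after seeing the data. The median log2 fold change of the 46 genes ran from -0.02 to 0.11 over the fits that each lack 1 library. That of the polymerase and primase genes was -0.0665 with total count scaling and ran from -0.0314 to 0.0421 over those fits. Fold changes near 0 turned sign in some of those fits. They ran from -0.0549 to 0.0343 for ORC6, from -0.0585 to 0.0223 for RPA1, from -0.152 to 0.0384 for UHRF1 and from -0.30 to 0.16 for CCNE2. The cause was not tested.

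Same-numbered libraries did not clearly deviate together (correlations of deviations from group means over all genes of 0.161, 0.0585 and 0.0868), although each library correlated best with its own number, a hint from the data and not the design. With the replicate number as a term (replicate block) 355 genes were called in place of 52, 0 of the 46 among them, and CDKN1A (adjusted p = 0.0133), E2F8 (0.0254) and CDC20 (0.0352) passed. Raising the minimum level brought CDKN1A past the threshold too (adjusted p = 0.0359), while leaving out each library gave it adjusted p-values of 0.0564 to 0.426. DESeq2 called 511 genes. The least abundant of the 46 genes, CCNE2, had a mean of 11.1 CPM, and 3 libraries per group limit the precision.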
